A study of Mus musculus with 9 samples.

Results

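The 9 kinases described here, Map3k7, Map3k8, Map2k3, Map2k6, Map2k4, Mapk14, Mapk3, Mapkapk2 and Mapkapk3, are the parts of the p38–MK2 cascade and of its neighbouring MAP kinase branches. They were picked by gene symbol and make up 9 of the 16921 gene identifiers in the RiboSeq table, and all 9 had a mean of at least 10 footprints per library. RiboSeq counts the mRNA fragments that ribosomes protect from nuclease, so that a gene's footprints reflect both how much of its mRNA is there and how heavily it is translated. The libraries came from immortalized bone marrow-derived macrophages (BMDMs) of TTP-deficient mice, made to grow by the oncogenes hcmyc and hRasG12V. These were transduced with a tet-inducible vector for GFP, GFP–TTP or GFP–TTP-AA, a mutant of TTP (S52A, S178A) that MK2 cannot phosphorylate at its main sites. All 3 lines, GFP-only cells included, carried the TTP deficiency and both oncogenes, received doxycycline (1 µg/ml) for 6 h and LPS (1 µg/ml) for 1 h, and gave 3 libraries each. Each condition was 1 separately transduced line, so a difference between conditions and a difference between lines cannot be told apart. Unstimulated cells are not part of the comparison, so nothing here says how LPS itself moved these kinases.

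The cascade is how LPS reaches TTP. Toll-like receptor 4 activates the MAP3Ks TAK1 (Map3k7) and TPL2 (Map3k8), TAK1 passes the signal to the MAP2Ks MKK3 (Map2k3), MKK6 (Map2k6) and MKK4 (Map2k4), and these phosphorylate p38α (Mapk14). Active p38α switches on the MAPK-activated protein kinases MK2 (Mapkapk2) and MK3 (Mapkapk3), and MK2 phosphorylates TTP. TTP binds AU-rich elements in mRNA 3′UTRs and brings in the decay machinery, an action that phosphorylation by MK2 restrains. TPL2 drives a separate branch, through MEK1 and MEK2, to ERK1 (Mapk3). Signalling through the cascade runs by phosphorylation, which RiboSeq does not see.

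The deposited values are those that the authors' model fitted per gene and library, between 2570292 and 12804501 footprints per library, and they were divided here by a size factor per library of 0.416 to 2.14. In fitted values the 3 libraries of a condition differ only by a term for the replicate number that is shared by all conditions (up to the scaling), so the spread between them is not replicate error, and the standard error (SE) of each difference was taken from the authors' deposited tables. The labels do not say whether the 3 libraries came from separate cultures, so the SE covers the spread between these libraries, which may be technical. Differences are on the log2 scale, shrunken towards 0 by the model, and written as the first condition over the second (GFP–TTP over GFP, GFP–TTP-AA over GFP and GFP–TTP-AA over GFP–TTP). Zfp36, which encodes TTP and also collects footprints of the constructs, stood at 439.3 to 501.5 footprints in the GFP-only libraries, 888.2 to 1013 with GFP–TTP and 1456 to 1663 with GFP–TTP-AA. It was lower in GFP-only cells than with either construct, and in that line, labelled as TTP-deficient, it was still far from 0. The construct lines also differed from each other. For GFP–TTP-AA over GFP–TTP the log2 difference of Zfp36 was 0.72 (SE 0.25, adjusted p = 0.043, Wald test). These lines thus differed in Zfp36 footprints besides the mutation, and the part of this in the values below was not tested. Of the 7 symbols listed as macrophage markers, Adgre1 and Emr1 name the same gene. Among these symbols 6 were found (Itgam, Csf1r, Cd68, Cd14, Lyz2 and Emr1). They summed to between 85667 and 104131 in the GFP-only libraries, 68039 and 81437 with GFP–TTP and 96490 and 118422 with GFP–TTP-AA. Most of each sum was Lyz2, with levels of 64189.5, 46132 and 71117 in the same order. Emr1 (3672, 2297 and 5321), Csf1r (6903, 6148 and 7709) and Cd68 (6501, 5977 and 6789) were also lowest with GFP–TTP. Itgam (2975, 3197 and 3177) and Cd14 (9561, 10319 and 11873) were instead lowest in GFP-only cells, so the markers did not move as a set. The markers of T cells, B cells and fibroblasts that were in the table summed to less than 2 footprints per library. Dendritic cell markers summed to between 10.5 and 15.8. Neutrophil markers summed to between 20.3 and 39.7 in the GFP-only and GFP–TTP libraries and to between 43.7 and 81.9 with GFP–TTP-AA, nearly all of it S100a8, with Mpo at 0.12. The part of both marker groups in the values below was not tested. In such bulk libraries fewer cells with a transcript and fewer footprints per cell cannot be told apart.

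AU-rich elements in the 3′UTRs of the members were counted because TTP acts through them. The motifs searched were ATTTA and the longer TATTTAT, on the transcript strand only and with overlaps allowed, in 1 annotated transcript per gene of GRCm38. In the same search ATTTA was found in 67.8% and TATTTAT in 28.5% of the 9880 genes with a mean of at least 10 footprints and a 3′UTR. TATTTAT was found in 2 members. The 3′UTR of Map2k6 (775 nt) held 2 TATTTAT and 4 ATTTA, and among 1178 genes with a 3′UTR within 20% of that length 20.9% held TATTTAT at all and 3.82% held it at least 2 times. The 3′UTR of Map3k7 was the longest of the 9 with 3786 nt and held 1 TATTTAT and 7 ATTTA, where 60.2% of the 861 genes of like length held TATTTAT. The 30-nt stretches round these 3 matches are shown because they hold the longer of the motifs searched. All are on the plus strand and written as DNA, with the match in capitals. The first pair is in Map2k6 at chr11:110513249-110513278 and chr11:110513328-110513357, and the last is in Map3k7 at chr4:32020714-32020743.
Map2k6 site 1: tattattttaaTATTTATgtttcagtgctt
Map2k6 site 2: tgactcggcagTATTTATagggcttttatt
Map3k7 site: tacaaagagaaTATTTATattgttaacaat
A match is a string of letters and not a measured binding site. The 3′UTRs of Map2k3 (964 nt), Mapk3 (612 nt) and Mapkapk3 (1256 nt) held 0 ATTTA. Mapk14 (2068 nt) and Mapkapk2 (1392 nt) held 1 ATTTA each, fewer than the median of 3 and 2 of genes of like length. Map3k8 (979 nt) and Map2k4 (2448 nt) held 4 each, against medians of 1 and 4.

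None of the 9 kinases passed the threshold (adjusted p under 0.05, Wald test on the fitted differences and the authors' SE, Benjamini-Hochberg adjustment over all genes tested) in any of the 3 comparisons. For GFP–TTP over GFP 0 of 9 passed, where 2.09% of all 9938 genes did, and 0 of 9 had an unadjusted p under 0.05 in the same test, where 11.3% of all genes did. For GFP–TTP-AA over GFP 0 of 9 passed against 3.11% of all 10103 genes, and 1 of 9, Map2k6, had an unadjusted p under 0.05 against 14.2% of all genes. For GFP–TTP-AA over GFP–TTP 0 of 9 passed against 10.3% of all genes, and 0 of 9 had an unadjusted p under 0.05 against 22.2% of all genes. With 9 genes, a count of 0 is near what the shares over all genes give in each comparison. The median log2 difference of the 9 was -0.13, -0.04 and 0.12 in these comparisons, and that of all genes tested was 0.0031, -0.0041 and -0.0050. The median size of the difference, without its sign, was 0.14, 0.09 and 0.15 for the members and 0.15, 0.15 and 0.19 for all genes. The comparisons share libraries, so that the same levels enter 2 of them each time. The widest limits of the 95% intervals over all members and comparisons were 0.491-fold and 1.74-fold. These limits lie round shrunken differences and do not bound the differences before shrinkage.

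**Figure D1:**
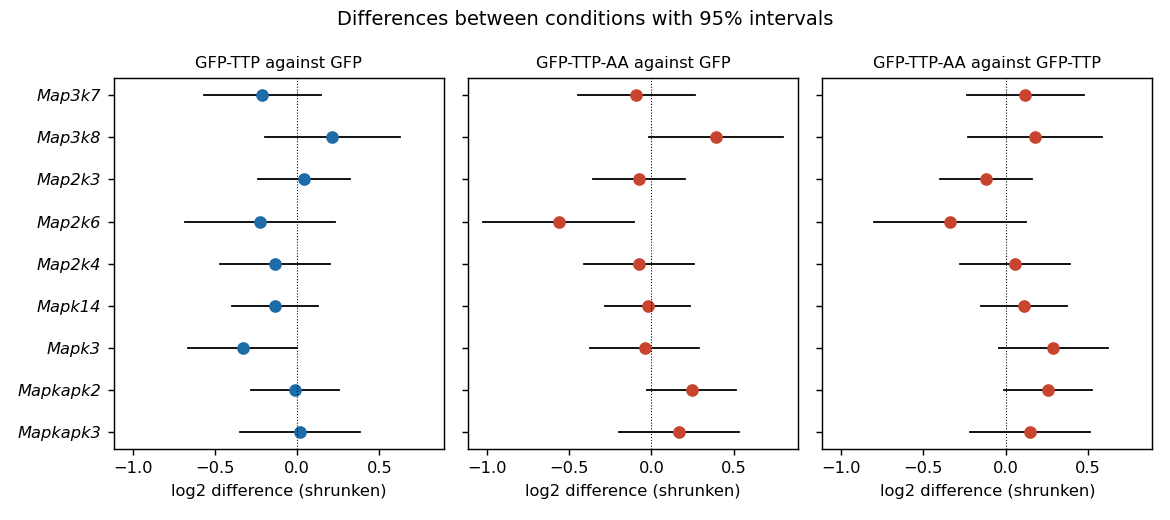
Shrunken log2 differences (x axis) of the 9 kinases (rows) in the 3 comparisons (panels), with points for the estimate and lines for the 95% interval from the authors' SE. The interval of Map2k6 for GFP–TTP-AA over GFP, from -1.02 to -0.11, is the only one of the 27 that lies clear of 0, and its adjusted p is 0.19.

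TAK1 and TPL2 stand at the top of the cascade. Map3k7 (TAK1), at chromosome 4, 31964097 to 32023467, plus strand, had 210.0, 207.7 and 253.5 footprints in GFP-only libraries 1 to 3, 181.2, 179.4 and 218.8 with GFP–TTP and 198.3, 194.3 and 237.4 with GFP–TTP-AA. The values of the 3 conditions overlapped. Its log2 difference was -0.21 (SE 0.18) for GFP–TTP over GFP, -0.09 (SE 0.18) for GFP–TTP-AA over GFP, and 0.12 (SE 0.18) for GFP–TTP-AA over GFP–TTP. Map3k8 (TPL2), at chromosome 18, 4331327 to 4353015, minus strand, had 80.6, 120.5 and 102.4 footprints in GFP-only libraries, 93.4, 139.8 and 118.7 with GFP–TTP and 106.5, 157.8 and 134.3 with GFP–TTP-AA. Within each replicate number the order ran upwards from GFP-only cells to the wild-type and then the mutant construct, which in fitted values is the order of the condition terms and no count of independent replicates. Map3k8 had the highest difference of the members for GFP–TTP-AA over GFP, 0.39 (SE 0.21, adjusted p = 0.38, Wald test), a 1.31-fold higher level with a 95% interval from 0.990-fold to 1.74-fold. It was 0.21 (SE 0.21) for GFP–TTP over GFP and 0.18 (SE 0.21) for GFP–TTP-AA over GFP–TTP.

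Of the MAP2Ks, the activators of p38 and JNK, Map2k6 differed most in estimate and Map2k3 and Map2k4 little. Map2k6 (MKK6), at chromosome 11, 110399122 to 110525522, plus strand, had 62.8, 80.7 and 60.7 footprints in the GFP-only libraries, 53.7, 69.1 and 51.9 with GFP–TTP and 42.7, 54.4 and 41.0 with GFP–TTP-AA. The GFP–TTP-AA values lay below all GFP-only values, and the GFP–TTP values overlapped with both. In fitted values this follows from the sizes of the condition and replicate terms and adds nothing to the difference below. The log2 difference was -0.57 (SE 0.23, adjusted p = 0.19, Wald test) for GFP–TTP-AA over GFP, that is 0.676-fold with a 95% interval from 0.491-fold to 0.930-fold. It was -0.23 (SE 0.23) for GFP–TTP over GFP and -0.34 (SE 0.24) for GFP–TTP-AA over GFP–TTP. In size the first of these was above 96.0% of all genes tested in that comparison, although the adjusted p did not pass. Map2k6 was also the member with the fewest footprints. Genes of chromosome 11 had a median difference of -0.09 for GFP–TTP-AA over GFP and of -0.12 for GFP–TTP-AA over GFP–TTP, and its part in the values of the 3 MAP2Ks, which all lie there, was not tested beyond subtracting it, which left Map2k6 at -0.48 (adjusted p = 0.38, same test) for GFP–TTP-AA over GFP.

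Map2k3 (MKK3), on the same chromosome from 60932033 to 60952811, had 592.9, 665.8 and 741.5 footprints in GFP-only libraries, 609.9, 685.9 and 762.9 with GFP–TTP and 565.4, 629.2 and 701.3 with GFP–TTP-AA. Its differences were 0.04, -0.08 and -0.12 (SE 0.14 each) in the comparisons of GFP–TTP with GFP, GFP–TTP-AA with GFP and GFP–TTP-AA with GFP–TTP. Map2k4 (MKK4), which also activates JNK, lies on the minus strand from 65688243 to 65788297 and had between 269.1 and 314.7 footprints over all 9 libraries. Its differences were -0.13, -0.07 and 0.06 (SE 0.17 each) in the same order.

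**Figure D2:**
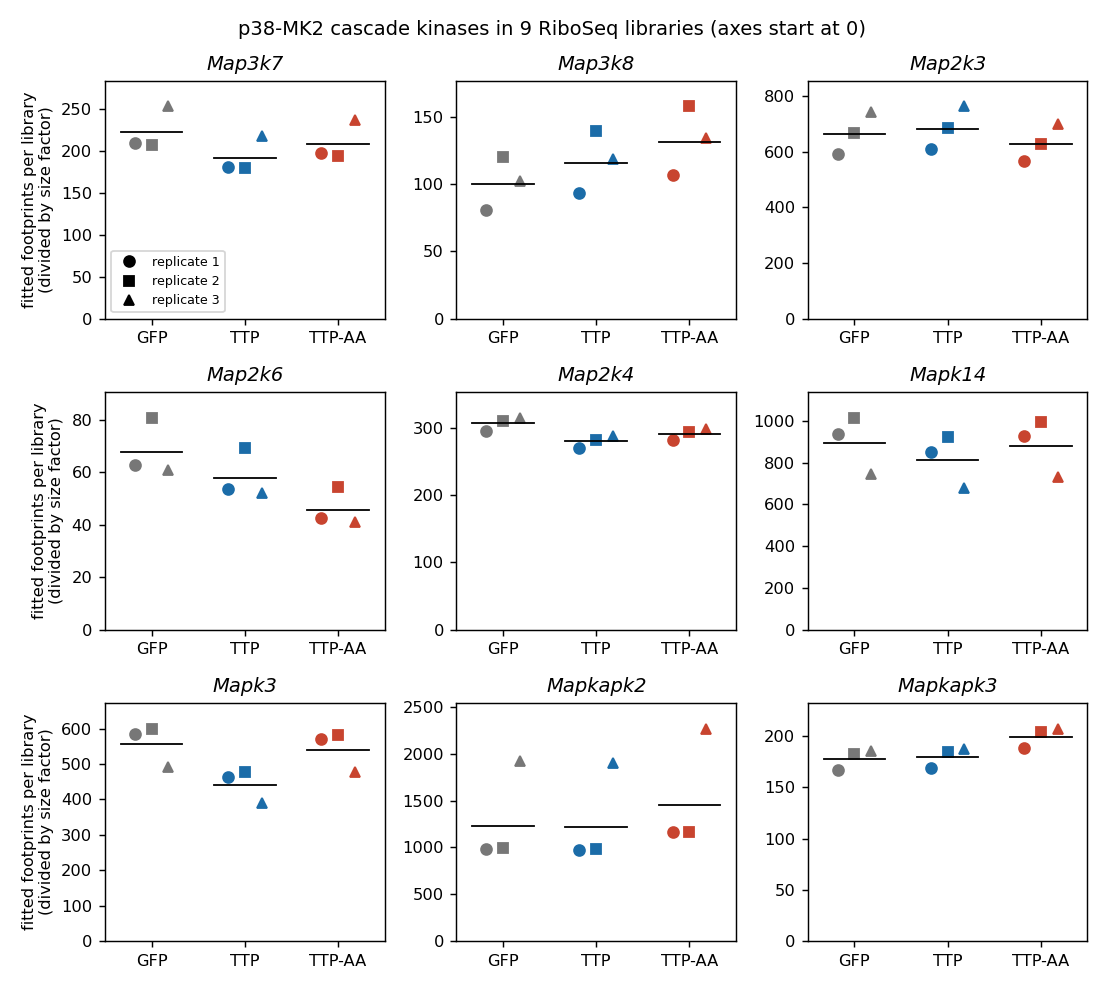
Fitted footprints per library divided by the size factor (y axes, each from 0) for the 9 kinases (panels) in the 3 conditions (x axis, TTP and TTP-AA for the GFP fusions), with a symbol for each replicate number and a line for the geometric mean. The steps between replicate numbers repeat in every condition, and for Mapkapk2 the step to replicate 3, at 1919, 1899.9 and 2268, is larger than any step between conditions.

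Mapk14 (p38α), at chromosome 17, 28691329 to 28748406, plus strand, is the MAP kinase that activates MK2. It had 938.5, 1016 and 747.3 footprints in the GFP-only libraries, 853.4, 925.2 and 679.7 with GFP–TTP and 928.7, 996.3 and 733.4 with GFP–TTP-AA. Its log2 differences were -0.14, -0.02 and 0.11 (SE 0.13 each), and the 95% interval for GFP–TTP-AA over GFP ran from 0.821-fold to 1.18-fold. Mapk3 (ERK1), at chromosome 7, 126759601 to 126765819, plus strand, had 583.4, 599.3 and 492.1 footprints in the GFP-only libraries, 463.1, 476.5 and 390.7 with GFP–TTP and 570.4, 580.6 and 477.2 with GFP–TTP-AA. All GFP–TTP values were below all GFP-only values, which in fitted values follows from the condition and replicate terms and is no evidence from independent replicates. For GFP–TTP over GFP the log2 difference of Mapk3 was -0.33 (SE 0.17, adjusted p = 0.44, Wald test), and for GFP–TTP-AA over GFP–TTP it was 0.29 (SE 0.17, adjusted p = 0.31, same test). GFP–TTP-AA and GFP-only macrophages had similar estimates for Mapk3, with a difference of -0.04 and a 95% interval from 0.773-fold to 1.22-fold.

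Mapkapk2 (MK2), the kinase that phosphorylates TTP, is found at chromosome 1, 131053700 to 131097826, minus strand. It had 978.0, 988.3 and 1919 footprints in the GFP-only libraries, 967.7, 979.4 and 1899.9 with GFP–TTP and 1165, 1167 and 2268 with GFP–TTP-AA. The GFP-only and GFP–TTP values lay close together, and the GFP–TTP-AA value was the highest within each replicate number. As for Map3k8, that is the order of the condition terms and no count of independent replicates. The log2 difference of Mapkapk2 was 0.24 (SE 0.14, adjusted p = 0.43, Wald test) for GFP–TTP-AA over GFP, 0.26 (SE 0.14, adjusted p = 0.25, same test) for GFP–TTP-AA over GFP–TTP, and -0.01 (SE 0.14) for GFP–TTP over GFP. The interval of the second ran from 0.993-fold to 1.44-fold. Mapkapk3 (MK3), the close relative of MK2 that acts on the same substrates, is found at chromosome 9, 107254927 to 107289877, minus strand. It had 166.8 to 185.2 footprints in the GFP-only libraries, 168.7 to 187.4 with GFP–TTP and 188.3 to 207.4 with GFP–TTP-AA. Its difference for GFP–TTP-AA over GFP was 0.17 (SE 0.19), with an interval from 0.871-fold to 1.45-fold, and for GFP–TTP-AA over GFP–TTP it was 0.15 (SE 0.19).

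Per kb of coding sequence the 9 kinases covered a wide range of levels. Mean footprints per kb were highest for Mapkapk2 with 1183, followed by Mapk14 with 804.4, Map2k3 with 635.6 and Mapk3 with 451.6. Map2k4 had 245.4, Mapkapk3 161.6, Map3k7 114.9, Map3k8 83.6 and Map2k6 57.3 footprints per kb, where the median of 9961 genes with a mean of at least 10 was 147.8. The order of Mapkapk2 and Mapk14 was not the same in all libraries. Mapk14 had 1.03 and 1.10 times the footprints per kb of Mapkapk2 in GFP-only libraries 1 and 2 and 0.417 times in library 3. Map3k7 and Map3k8 also changed places, with a ratio per kb between 0.949 and 2.01 over the 9 libraries. The other neighbours in the order were not compared library by library.

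Within each pair of close relatives, 1 gene held most of the footprints in every library. Mapkapk2 had between 5.27 and 10.9 times the footprints per kb of Mapkapk3, and Map2k3 between 7.94 and 16.5 times those of Map2k6. Of the p38 isoforms, which share substrates in part, Mapk14 had at least 25.4 times the footprints per kb of Mapk11 (p38β) and at least 39.3 times those of Mapk12 (p38γ) over the 9 libraries. Mapk13 (p38δ) had a mean of 4.54 footprints per library, below the minimum of 10. Without a minimum it was past the threshold for GFP–TTP-AA over GFP–TTP, with a log2 difference of 0.55 (adjusted p = 0.033, Wald test). Reads were kept at up to 2 places in the genome, so that footprints on stretches that 2 relatives share can have been counted for either or neither.

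**Figure D3:**
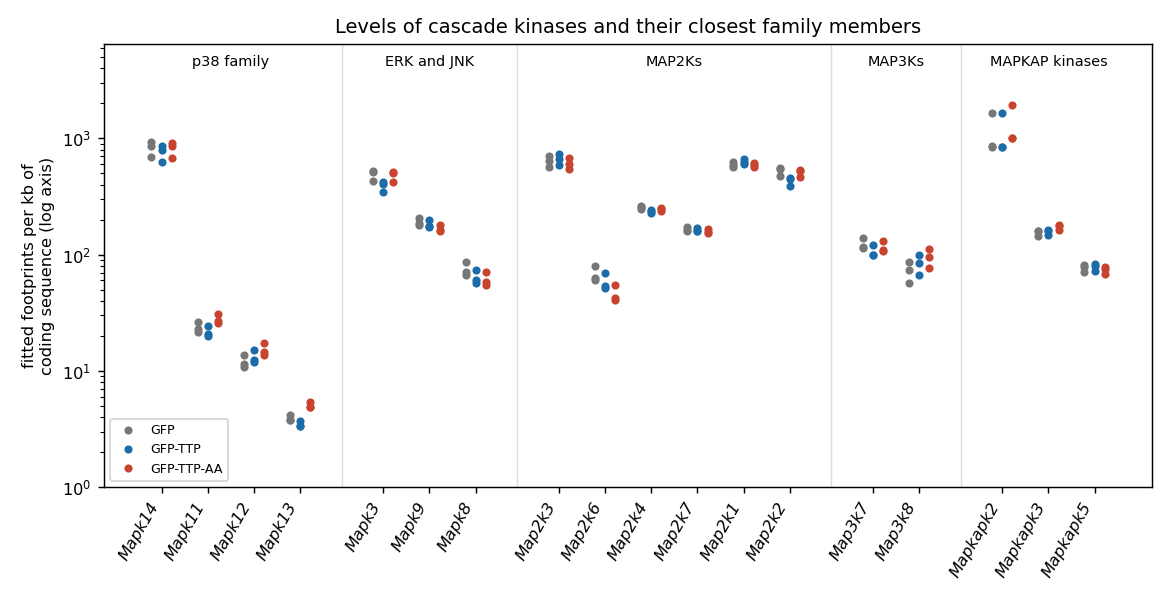
Fitted footprints per kb of coding sequence (log axis) in each library, coloured by condition, for cascade kinases and their closest family members. Mapk14 stands above the other p38 isoforms, Mapkapk2 above Mapkapk3 and Map2k3 above Map2k6 in all 9 libraries.

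Other genes of the p38, ERK and JNK pathways were read from a list of 57 genes, of which 56 were in the table and 53 had a mean of at least 10 (Mapk10 was not found, and Mapk13, Map3k10 and Ksr1 fell below). For GFP–TTP over GFP 1 of 53 passed the threshold, or 1.89%. For GFP–TTP-AA over GFP 3 of 53 passed (5.66%), all lower, and for GFP–TTP-AA over GFP–TTP 5 of 53 (9.43%), 3 higher and 2 lower. The shares over all genes were 2.09%, 3.11% and 10.3%. The median log2 difference of the 53 genes was -0.04, -0.02 and -0.01.

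Mef2c, a transcription factor that p38 phosphorylates, fell most. Its level was 678.7 footprints in GFP-only cells, 595.3 with GFP–TTP, and 322.6 in cells with GFP–TTP-AA, and it fell by 1.07 (SE 0.15, adjusted p = 1.7e-09, Wald test) for GFP–TTP-AA over GFP and by 0.88 (SE 0.15, adjusted p = 8.5e-07, same test) for GFP–TTP-AA over GFP–TTP. Mknk2, the MAP kinase-interacting kinase MNK2 that phosphorylates eIF4E, had levels of 240.4 in GFP-only cells, 150.8 with GFP–TTP, and 270.2 in cells with GFP–TTP-AA. It fell by 0.67 (SE 0.18, adjusted p = 0.015, same test) for GFP–TTP over GFP and rose by 0.84 (SE 0.18, adjusted p = 0.00015, same test) for GFP–TTP-AA over GFP–TTP. The first of these calls was lost when the median of chromosome 10, which was -0.12, was subtracted (-0.55, adjusted p = 0.097, same test).

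The GADD45 proteins are small activators of the MAP3K MEKK4. Gadd45g fell by 0.85 (SE 0.23, adjusted p = 0.011, Wald test) for GFP–TTP-AA over GFP, a call that was lost with a pseudocount of 10 (-0.74, adjusted p = 0.058), and Gadd45b rose by 0.71 (SE 0.20, adjusted p = 0.0080, same test) for GFP–TTP-AA over GFP–TTP. Map3k1 (MEKK1), a MAP3K of the JNK branch, fell by 0.70 (SE 0.18, adjusted p = 0.0089, same test) for GFP–TTP-AA over GFP, and Map3k12 (DLK) fell by 0.70 (SE 0.22, adjusted p = 0.019, same test) for GFP–TTP-AA over GFP–TTP. Nfkb1, whose precursor protein p105 holds TPL2 inactive until LPS acts, rose by 0.44 (SE 0.15, adjusted p = 0.035, same test) for GFP–TTP-AA over GFP–TTP. Subtracting chromosome medians left Gadd45b at 0.55 (adjusted p = 0.065), Map3k12 at -0.60 (adjusted p = 0.057) and Nfkb1 at 0.37 (adjusted p = 0.11, same test), none of which passed.

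The other partners described here did not pass in any comparison. Tab1 and Tab2, the subunits that bind TAK1, had differences between -0.04 and 0.13, and Tnip2 (ABIN-2), which binds TPL2 and p105, had -0.07, 0.10 and 0.17. The MAP2Ks of the ERK branch, Map2k1 and Map2k2, had -0.01 and -0.05 for GFP–TTP-AA over GFP. Map2k2 had -0.29 (SE 0.14, adjusted p = 0.42, Wald test) for GFP–TTP over GFP, where Map2k1 had 0.09 and the genes of chromosome 10, on which Map2k2 lies, a median of -0.12. The JNK genes Mapk8 and Mapk9 had -0.29 and -0.21 for GFP–TTP-AA over GFP, their activator Map2k7 had -0.07, and Mapkapk5 (MK5) had -0.05.

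**Figure D4:**
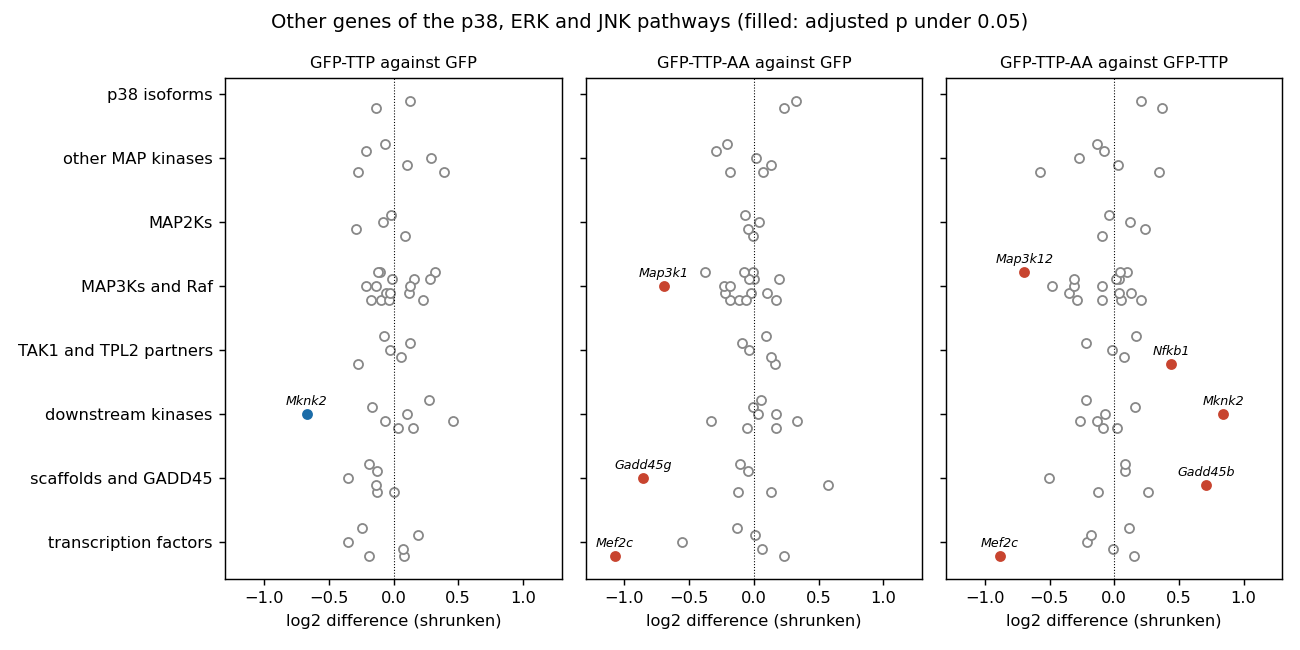
Shrunken log2 differences (x axis) of 53 other genes of the p38, ERK and JNK pathways, grouped by role (rows), in the 3 comparisons (panels), with filled, named points for genes past the threshold. The filled points number 1, 3 and 5 from left to right, and Mef2c is the lowest in both panels of GFP–TTP-AA.

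Mapkapk2 differed from the other members in the replicate term that all conditions share. Averaged over the conditions its level was 1033, 1041 and 2022 footprints in replicates 1, 2 and 3, so that replicate 3 was 1.95-fold above the mean of the others, or 0.96 on the log2 scale. Of all 10103 genes with a mean of at least 10, 34 had a higher replicate-3 term, and the SD of that term over these genes was 0.28. The other members lay between -0.39 for Mapk14 and 0.28 for Map3k7. The term of Mapkapk2 was larger than its widest difference between conditions, 0.26, and so were those of Mapk14 (-0.39 against 0.14), Map2k3 (0.24 against 0.12) and Map3k7 (0.28 against 0.21). Map3k8 stood apart instead between replicates 2 and 1, with 0.58 on the log2 scale, above 97.1% of the same genes, against 0.39 between conditions. The model takes the term out of the differences between conditions, and no error of the term itself was at hand, so that it is given as a description.

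**Figure D5:**
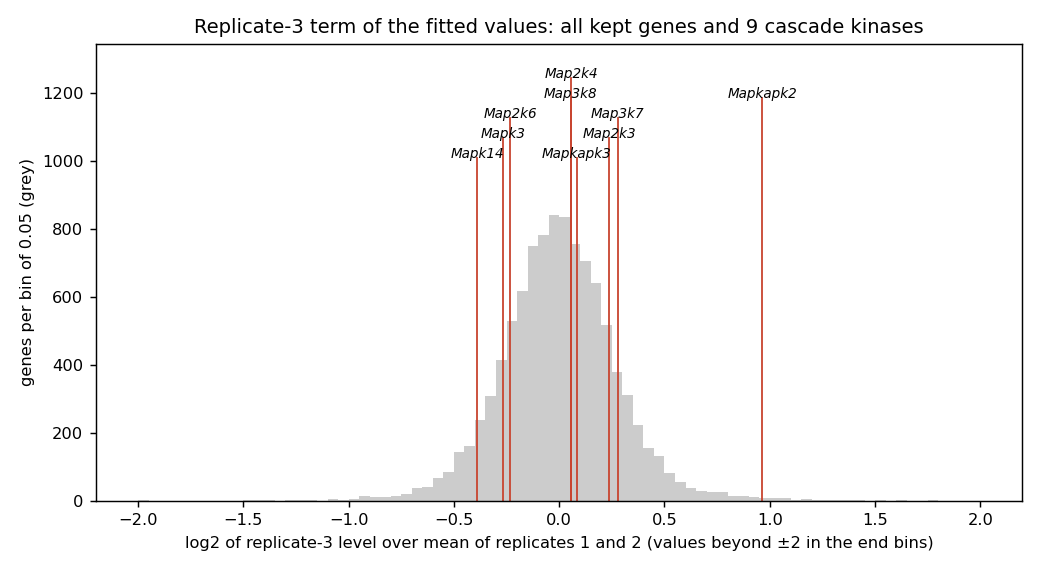
Distribution of the replicate-3 term (x axis, log2 of the level in replicate 3 over the mean of replicates 1 and 2, averaged over conditions) over 10103 genes (grey bars, genes per bin), with red lines for the 9 kinases. Mapkapk2 lies at 0.96 in the upper tail and the other 8 between -0.39 and 0.28.

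Map2k6 had the largest difference of the members, and its nearest genes were sought by the distance between the pairs of log2 differences of GFP–TTP and GFP–TTP-AA against GFP, over 8440 genes with a mean of at least 50. The nearest were Bmp2k at -0.24 and -0.57, Elmod2 at -0.24 and -0.55 and Kptn at -0.20 and -0.55, beside -0.23 and -0.57 for Map2k6. Their distances were 0.017, 0.021 and 0.026. Within a distance of 0.1 there were 45 of these genes. The likeness is over 2 differences between 3 conditions that share the GFP-only libraries.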

How the data were processed

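RiboSeq libraries (9, 3 per condition) were grouped by the sample labels. Per the authors' methods and the submitters' processing notes, reads were trimmed (Trim Galore), mapped to mm10 (GRCm38) with TopHat keeping up to 2 alignments (TopHat2 2.0.12 in the notes, while the methods name another version), counted (HTSeq) and fitted by the authors with DESeq2 1.6.3 with terms for library date and condition. The deposited table (16932 lines, 16921 identifiers) holds a signal, the fitted footprints. After condition and replicate terms nothing but rounding error was left of its log2 values, so observed counts and depth are not known from it. Size factors (median of ratios) and log2 differences were computed here. The authors' deposited comparison tables gave the SE on the log2 scale. Their fold changes, statistics and p-values were not used. A two-sided Wald test (difference over SE, normal p) with Benjamini-Hochberg adjustment was applied to all genes with a mean of at least 10 and an SE (Python 3.11.15, numpy 2.4.6, scipy 1.17.1). A run on simulated data drew its errors from the same SE, so it checked the code and not the error rate. Levels are geometric means over the libraries of a condition.

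Members, pathway list and markers were chosen with earlier results of these data known. Named genes are all members, listed pathway genes past the threshold or set by name, Zfp36 and the 3 genes nearest to the member with the largest difference. 1 gene set by name is not reported here. Coordinates, coding lengths and 3′UTRs are from GENCODE M21 on GRCm38, 1 transcript per gene (with a CCDS, then the longest). The median-of-ratios scaling and the library-total alternative were chosen after the table was seen. Alternatives are under the closing section. RNASeq and iCLIP data were not analysed here.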

Additional observations from a re-analysis of the deposited data

How the results depend on the processing

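No member passed the threshold under any of 7 alternatives (a minimum mean of 50, no minimum, centring on the median difference, chromosome medians subtracted, adjustment over the 3 comparisons together, a pseudocount of 10 and, chosen after seeing the data, scaling by library totals; lowest adjusted p = 0.17, Wald test, for Map2k6 between GFP–TTP-AA and GFP). Both filters and the joint adjustment leave the differences as they are, and centring, library totals and the pseudocount turned none of them. The subtraction of chromosome medians turned 4: Mapkapk3 between GFP–TTP and GFP to -0.036 and, between GFP–TTP-AA and GFP, Map2k3 to 0.0095, Map2k4 to 0.012 and Mapk14 to 0.0050. Each was within its SE of 0 before and after. The counts over all genes stayed within 1.5 times of those reported under the other alternatives, and were not made with the pseudocount. Adjustment over the 3 comparisons together left Nfkb1 at an adjusted p of 0.058 (same test).

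No paired analysis was possible because the deposited values are fitted and the replicate number is already a term of the model, with nothing left after it. For the same reason no library could be left out in turn. Depth limits the results through the SE and the shrinkage. The SE was widest for the members with the fewest footprints, 0.23 to 0.24 for Map2k6 against 0.13 for Mapk14. Shrinkage understates the size of differences.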

Other observations

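Which other genes stood high or low in replicate 3 of all conditions was read after the values were seen and is given without a test. Of the 34 genes above Mapkapk2, the 5 highest were Traf1 (1.79 on the log2 scale), Zc3h12c (1.63), Ppap2b (1.53), Rapgef2 (1.44) and H2-M2 (1.39). Also among them were the LPS-response genes Ifnb1 (1.23), Cxcl10 (1.22) and Relb (1.06), picked by name, and no list was tested. The 5 lowest were Gm24119 (-3.26), Dusp6 (-2.08), Ddit4 (-1.48), Jun (-1.44) and AY036118 (-1.39). The phosphatases Dusp6 and Dusp1 (-1.23), which act on MAP kinases, were both among the 15 lowest, as was Gadd45g (-1.02) of the pathway list. The paper names Dusp1 among the feedback inhibitors whose expression rises with LPS. The LPS-response genes named here thus lay at both ends, and no pattern among them was tested. Map3k1 was at -0.91 and Zfp36 at 0.18. All of these genes have the same replicate-3 term in all 3 conditions, since the fitted values hold only 1 such term per gene. The authors' model held a term for library date, and the labels give replicate numbers without dates. Whether the replicate-3 libraries differed in stimulation, timing or preparation was not tested.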
